A study of Caenorhabditis elegans with 2 samples.

Results

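The nuclear pore and nuclear transport genes of Caenorhabditis elegans were examined for binding of the transcription factor EFL-1 at their promoters. The set was taken from gene names alone and held the 40 nuclear protein-coding genes of the WBcel235 annotation (Ensembl release 115) named npp-, imb-, ima-, xpo- or ran- followed by a number, of 19973 nuclear protein-coding genes in all. The genes were proposed for study with earlier results of these data known, so their counts and signal values are descriptions and were not tested. Binding had been mapped by chromatin immunoprecipitation and sequencing (ChIP-seq) in 1 group of 2 biological replicates, each with 1 technical replicate. Both came from whole young adult hermaphrodites of strain YL478, a transgenic line that makes EFL-1 fused at its C-terminal end to GFP and FLAG, described in the labels as an insertion that targets efl-1. The precipitation used anti-GFP, per the description, although another label names the antibody after efl-1. The promoter that drives the tagged protein is not given in the labels, and the worms were not compared with another strain, stage or treatment. Whole animals mix germ line and somatic nuclei, so the lists do not show in which cells a site was bound.

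EFL-1 belongs to the E2F family, whose members bind DNA with a DP partner and are best known at genes of the cell division cycle, and in the worm it has been studied mainly in the germ line. The nuclear pore complex is a ring of nucleoporins set in the nuclear envelope. Its scaffold is made of inner and outer rings held by membrane nucleoporins, its channel is filled by nucleoporins rich in phenylalanine and glycine, and filaments project from it into the cytoplasm and into the nucleus as a basket. Importins carry cargo inwards and exportins outwards, and the small GTPase Ran sets the direction, since it is loaded with GTP in the nucleus and hydrolyses it in the cytoplasm. Worm embryos divide rapidly and rebuild their nuclear envelopes at each division from a maternal stock of these proteins.

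The sequences below are the 50 bases on either side of the EFL-1 summit at 8 of the genes, on build ce11 and written 5′ to 3′ in the direction of the named gene. The first 5 hold the E2F core sequence and the last 3 do not. Capitals mark the core, TTNNCGC with each N either C or G, or its reverse complement.
npp-3 (chrII:11874858-11874958, minus strand): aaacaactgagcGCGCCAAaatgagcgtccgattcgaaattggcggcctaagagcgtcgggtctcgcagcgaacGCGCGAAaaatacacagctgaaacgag
ran-1 (chrIII:10748074-10748174, minus strand): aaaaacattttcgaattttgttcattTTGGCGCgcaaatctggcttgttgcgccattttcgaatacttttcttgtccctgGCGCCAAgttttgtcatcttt
ima-1 (chrV:11239384-11239484, plus strand): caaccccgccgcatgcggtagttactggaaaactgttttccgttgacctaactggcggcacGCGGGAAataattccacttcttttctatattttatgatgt
npp-8 (chrIV:1595928-1596028, minus strand): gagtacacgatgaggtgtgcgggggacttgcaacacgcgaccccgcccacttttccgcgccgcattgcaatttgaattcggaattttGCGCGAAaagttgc
npp-15 (chrIII:7928871-7928971, plus strand): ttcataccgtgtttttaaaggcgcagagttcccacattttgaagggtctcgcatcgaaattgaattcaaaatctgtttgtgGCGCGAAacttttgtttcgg
npp-21 (chrII:7599115-7599215, plus strand): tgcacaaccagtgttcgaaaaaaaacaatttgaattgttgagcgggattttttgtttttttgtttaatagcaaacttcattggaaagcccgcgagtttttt
imb-2 (chrII:14365234-14365334, plus strand): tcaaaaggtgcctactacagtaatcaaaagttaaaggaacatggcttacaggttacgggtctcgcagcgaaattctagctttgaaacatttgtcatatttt
npp-5 (chrII:11599901-11600001, minus strand): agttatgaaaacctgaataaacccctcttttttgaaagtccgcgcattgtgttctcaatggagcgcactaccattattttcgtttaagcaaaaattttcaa

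A promoter peak was present at 26 of the 40 genes (65%), against 10.9% of all nuclear protein-coding genes. A promoter peak here is a peak of the authors' thresholded ce11 list, called optimal, whose summit lies within 500 bp of an annotated start site. That list holds 2802 peaks on the nuclear chromosomes, with signal values from 40.1 to 2554. The signal value is the authors' own measure of peak strength, on a scale for which no source used here gives a definition, and read depth is unknown. The authors also deposited longer lists of candidate regions, namely 1 for each replicate and 1 called on both replicates together (the joint list), and the values by replicate come from these. Each of the 26 genes had 1 promoter peak, and the 26 peaks were distinct. Their signals ran from 43.6 at ran-3 to 1205 at npp-3 with a median of 153, where the median over all 2187 genes with a promoter peak was 93.4. Peaks of 4 of the genes, npp-3, ran-1, ima-1 and ima-2, ranked among the strongest 100 of the nuclear list, as did promoter peaks of 109 of all 19973 genes. Among the stronger 1401 peaks of the nuclear list, 17 of the 40 genes had a promoter peak, against 6.49% of all genes. The 14 genes without a promoter peak were xpo-1, xpo-3, ima-3, npp-4, npp-11, npp-12, npp-20, npp-23, npp-24, npp-25, npp-26, npp-27, ran-2 and ran-4.

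**Figure D1:**
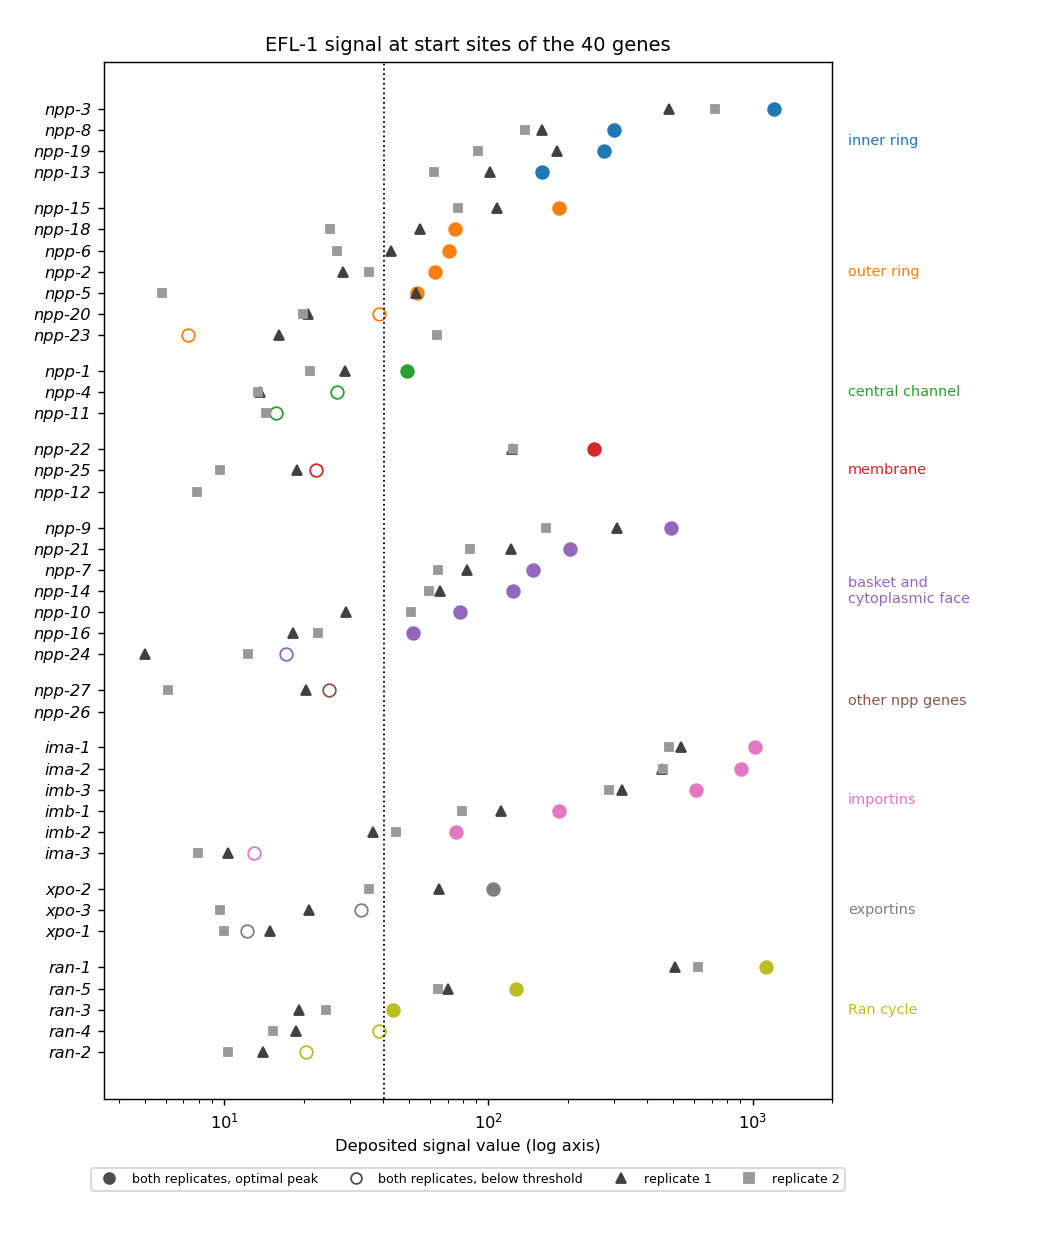
Deposited signal values (log axis) at the start sites of the 40 genes, grouped by role, for both replicates together (circles), replicate 1 (triangles) and replicate 2 (squares); filled circles are optimal peaks, and open circles are the strongest region of the list called on both replicates within 500 bp of a start site. The dotted line is the lowest optimal signal, 40.1. The 4 inner ring genes all lie to the right of it, between 160 and 1205, and npp-5 shows replicates far apart. At genes without an optimal peak each symbol is the strongest region of its own list in the window, and these regions can differ. At npp-23 the replicate 2 region does not overlap that of replicate 1.

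The inner ring was the role in which every gene had a promoter peak, with 4 of 4. Over all nuclear protein-coding genes the share was 10.9%, which also stands beside the counts of the other roles below. At npp-3, the worm Nup205, the peak from 11874716 to 11875050 on chromosome II had a value of 481 in replicate 1 and 719 in replicate 2. It had 1205 in both together and ranked 33 in the nuclear optimal list. The strongest value in any of the 40 genes was therefore near the start of a scaffold nucleoporin gene, with the higher value in replicate 2. That peak is shared with the divergent gene top-2, so these lists do not give it to either gene. At npp-8, the worm Nup155, replicate 1 had 160 and replicate 2 had 137, and both together had 299 (IV, 1595855 to 1596106, rank 282). At npp-19, the worm Nup35, the values were 182 and 91, with 275 in both together (II, 10798559 to 10798778, rank 316), so that replicate 1 was 2.00 times replicate 2. npp-13, the worm Nup93, had 101 in replicate 1 and 62.0 in replicate 2, and 160 in both together (I, 2097056 to 2097227, rank 593). All 4 inner ring peaks held an E2F core within 100 bp of the summit, against 31.6% of all promoter peaks. With all promoter peaks divided by signal into 4 groups of equal size, 55.2% of the strongest group, which holds npp-3, npp-8 and npp-19, had it. In the next group, which holds npp-13, 31.8% had it.

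The outer ring, or Y complex, had promoter peaks at 5 of 7 genes, and all were weaker than the peaks of npp-3, npp-8 and npp-19. npp-15, the worm Nup133, had 108 in replicate 1 and 76.6 in replicate 2, and 185 in both together (III, 7928817 to 7929003, rank 487). The next 3 lay close to each other in signal, namely npp-18 (the worm Seh1) at 74.8, npp-6 (Nup160) at 70.9 and npp-2 (Nup85) at 62.5. Their replicate values were 54.9 and 25.2 at npp-18, 42.8 and 26.7 at npp-6, and 28.1 and 35.3 at npp-2. The peak of npp-5, the worm Nup107, stood apart between replicates. Its value was 53.1 in replicate 1 and 5.8 in replicate 2, with ranks of 1166 and 19936, and 53.8 in both together (II, 11599806 to 11600095). Its call thus rested on replicate 1. The other outer ring genes, npp-20 (Sec13) and npp-23 (Nup43), had no promoter peak. The E2F core was found at npp-15 alone among the 5 peaks. Of all promoter peaks in the strongest of the 4 signal groups, which holds npp-15, 55.2% had it. The share was 24.4% in the group that holds npp-18, npp-6 and npp-2, and 14.9% in that of npp-5. The outer ring counts leave out npp-10, which also encodes the Y complex protein Nup96 and whose peak held a core. It is described with the basket and cytoplasmic face.

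Nucleoporins of the nuclear basket and of the cytoplasmic face had promoter peaks at 6 of 7 genes. The strongest was at npp-9, the worm Nup358, a Ran-binding protein of the cytoplasmic filaments, with 307 in replicate 1, 166 in replicate 2 and 492 in both together (III, 3404259 to 3404709, rank 155). It was the widest of the 26 peaks, at 451 bp, and the only peak among them with its summit downstream of the start, 51 bp downstream and within an intron of npp-9. npp-21, the worm Tpr of the basket, followed with 122 and 85.4 in the replicates and 204 in both together. npp-7 (Nup153) had 82.9 and 64.6, with 147 together, and npp-14 (Nup214) had 65.7 and 59.8, with 124 together. npp-10, whose product is cut into Nup98 and Nup96, was higher in replicate 2, with 28.8 and 50.8, and 78.2 in both together. npp-16, the worm Nup50, was among the weakest, with 18.1 and 22.7 in the replicates and 52.0 together. Its ranks of 4212 in replicate 1 and 2438 in replicate 2 place it outside the 2802 strongest regions of the first. npp-24, the worm Nup88, had no promoter peak. Neither did npp-17, which is named rae-1 in the annotation and is therefore not among the 7.

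The central channel and the membrane ring each had a promoter peak at 1 of 3 genes. In the channel it was npp-1 (Nup54), a weak peak with 28.5 in replicate 1, 21 in replicate 2 and 49.2 together, while npp-4 (Nup58) and npp-11 (Nup62) had none. In the membrane it was npp-22, the worm NDC1, with 123 and 124 in the replicates and 252 in both together (V, 11733583 to 11733788, rank 353). The npp-22 summit lay in an untranslated exon of the neighbouring gene spe-42, 209 bp upstream of the npp-22 start. The membrane nucleoporin genes npp-12 (gp210) and npp-25 (a TMEM33 homolog) had none. The remaining npp genes, npp-26, annotated as the RNA export factor GLE1, and npp-27, which encodes a protein with a C3HC-type domain, also had none.

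**Figure D2:**
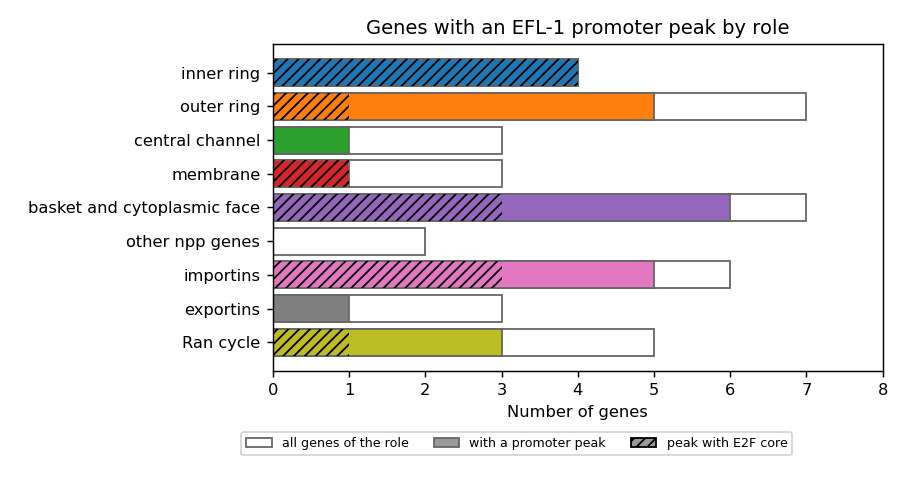
Number of genes in each role (white bars), with an EFL-1 promoter peak (coloured) and with an E2F core within 100 bp of the summit of that peak (hatched). Peaks were present at 4 of 4 inner ring genes, 6 of 7 basket and cytoplasmic face genes and 5 of 6 importins, and at 1 of 3 genes in each of the channel, the membrane and the exportins. The share over all nuclear protein-coding genes was 10.9%.

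Importins had promoter peaks at 5 of 6 genes and exportins at 1 of 3, against 10.9% of all genes. These roles hold few genes, and their counts depended on the rule. With each peak given only to its nearest start, ima-1 lost its peak. Within 200 bp of a start, imb-1 alone of the importins and xpo-2 of the exportins kept theirs. Within 1000 bp, xpo-1 gained one. The importin alpha genes encode the adaptors that recognise nuclear localisation signals, and 2 of the 3 had a strong peak. At ima-1 the values were 537 in replicate 1 and 481 in replicate 2, with 1025 in both together (V, 11239270 to 11239603, rank 44). At ima-2 they were 454 and 457, with 906 together (I, 6314739 to 6315086, rank 56). At ima-3 no optimal peak lay within 12387 bp of the start, and the strongest region of the list called on both replicates had a value of 13.0 and rank 14086. Worm ima-1 and ima-2 are known as germ line genes and ima-3 as a gene of germ line and soma. Whether this bears on the peaks was not tested. The ima-1 summit was also nearer to the start of dvc-1 (103 bp) than to that of ima-1 (241 bp). Among the importin beta genes, imb-3, an importin of the karyopherin beta 3 type, had 321 and 285 in the replicates and 612 together (I, 315111 to 315399, rank 107). imb-1, the worm importin beta, had 112 and 79.3, with 185 together, and imb-2, the worm transportin, had 36.5 and 44.8, with 75.5 together. The exportin with a peak was xpo-2, the worm CAS, which returns importin alpha to the cytoplasm, with 64.9 and 35.2 in the replicates and 104 together (I, 323431 to 323575). xpo-1, the worm CRM1 and the main exporter of proteins with leucine-rich signals, and xpo-3, the exportin of tRNA, had no promoter peak.

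Of the Ran cycle, 3 of 5 genes had a promoter peak. At ran-1, the gene of the GTPase, the peak from 10747951 to 10748327 on chromosome III had 508 in replicate 1, 621 in replicate 2 and 1128 in both together, with rank 39. ran-5, whose product has a Ran-binding domain, had 70.2 and 64.4 in the replicates and 127 together (rank 805). ran-3, which encodes the RCC1-type exchange factor that loads Ran with GTP, had the weakest promoter peak of all 26 genes, with 19.1 and 24.3 in the replicates and 43.6 together (rank 2590). The genes of the GTPase-activating protein, ran-2, and of the Ran importer, ran-4, an NTF2 homolog, had no promoter peak. The start of ran-2 lies downstream of npp-15 on the same strand, and the npp-15 peak, 4614 bp upstream of the nearest ran-2 start, was the optimal peak closest to it.

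Several peaks lay between divergent genes and cannot be given to either gene from these lists. Of the 26 peaks, 15 also had a start site of another protein-coding gene within 500 bp, always on the opposite strand, and 11 did not. The share with such a partner, 57.7%, stood beside 41.2% for all genes with a promoter peak. For 6 of the 15 the nuclear pore or transport gene had the nearer start. Thus the npp-3 summit was 120 bp upstream of npp-3 and 240 bp upstream of top-2, the gene of topoisomerase II. The npp-15 summit was 122 bp upstream of npp-15 and 204 bp upstream of C29E4.13, and that of xpo-2 was nearer to xpo-2 than to nol-14. imb-1 and mfsd-13.1 were almost equally far from their summit, at 70 and 79 bp. npp-16 (77 bp, against 139 bp for ndab-1) and npp-9 (51 bp, against 435 bp for F59A2.5) completed these 6. For the other 9 the partner was nearer. They included ran-1 with the dyskerin gene dkc-1 (396 against 305 bp), ima-1 with the metalloprotease gene dvc-1 (241 against 103 bp), npp-7 with the netrin receptor gene unc-40 (461 against 300 bp) and npp-14 with cel-1 (269 against 67 bp). The remaining partners were pgam-5 for npp-21, R12C12.6 for ran-5, cyk-3 for npp-10, C26D10.3 for ran-3 and the centrosome gene spd-5 for npp-6, where the summit lay inside an intron of spd-5. With each peak given only to its nearest start, 17 of 40 genes had a promoter peak, against 8.75% of all genes. The 11 genes whose summit had no other protein-coding start within 500 bp included ima-2, imb-3, npp-8, npp-19 and npp-22. The npp-22 summit nevertheless lay in an untranslated exon of spe-42.

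The summits lay upstream of the start at 25 of the 26 genes. Their median position was 232 bp upstream, against 172 bp over all genes with a promoter peak, and 11 of 26 (42.3%) lay within 200 bp, against 53.2% of those genes. The summit farthest inside the window was at npp-21, 492 bp upstream, and the first outside it was at npp-12, 653 bp upstream. With a window of 200 bp, 11 of 40 genes kept a promoter peak, against 5.92% of all genes. These were npp-1, npp-3, npp-5, npp-8, npp-9, npp-15, npp-16, npp-18, npp-19, imb-1 and xpo-2, so that ran-1, ima-1 and ima-2, with summits 396, 241 and 323 bp upstream, were not among them. Beside the promoter peaks, 3 optimal peaks had summits inside the 40 genes farther from their starts. The peak in npp-1 was 752 bp downstream of the nearest start (signal 50.4), and the peaks in imb-3 (48.3) and npp-9 (82.2) lay at the 3′ ends, within 500 bp of the starts of the neighbours C53D5.5 and clpf-1.

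**Figure D3:**
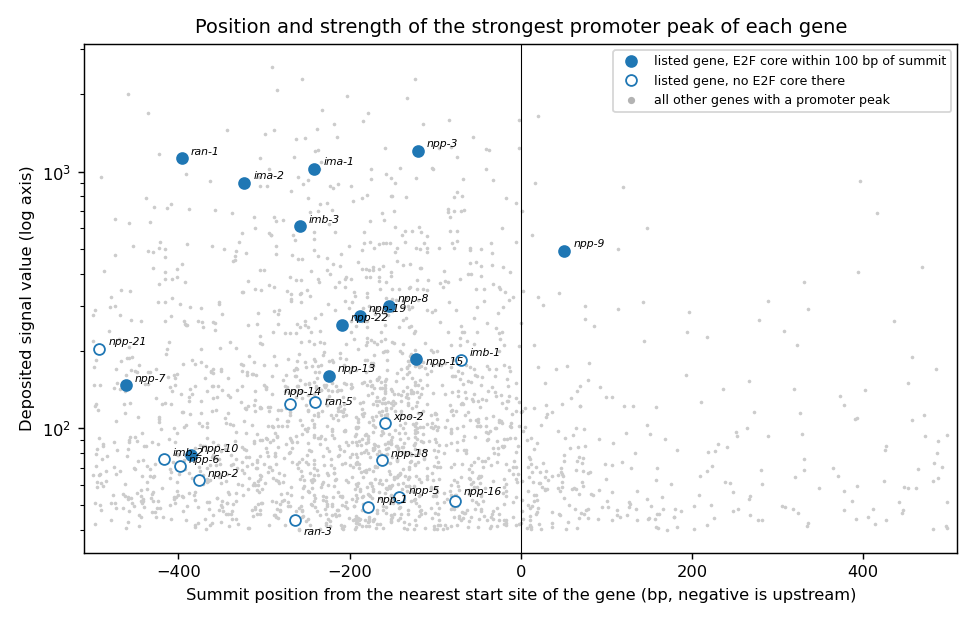
Summit position from the nearest start site of the gene in bp (x axis, negative is upstream) against deposited signal value (log axis) for the strongest promoter peak of each gene; large circles are the 26 nuclear pore and transport genes, filled where an E2F core lay within 100 bp of the summit, and grey points are the other genes. Among the 26 large circles, all summits but that of npp-9 are upstream, and the 9 strongest are filled.

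The E2F core was the next feature examined. The naming rule had not used sequence, but the genes were proposed with earlier results known and the 26 windows are centred on EFL-1 summits. The core was found within 100 bp of the summit, on either strand, in 13 of the 26 peaks (50%), against 31.6% of the 1803 distinct promoter peaks. Windows of the same length upstream of the outermost start of all 19973 genes, which are not centred on peaks, held it in 6.28% of cases. Promoter regions of the list called on both replicates that fell below the optimal peaks held it in 9.0%. The 9 strongest peaks of the 26, from npp-3 to npp-22, all had it, and of the 13 weakest only npp-10 and npp-7 did. In all promoter peaks the core also went with strength. When all promoter peaks were divided by signal into 4 groups of equal size, it was in 55.2% of the strongest group (signal from 165), where 10 of 12 of the nuclear pore and transport peaks had it. In the group below it was in 31.8% of all promoter peaks and in 2 of 5 of these, in the next in 24.4% and 1 of 5, and in the weakest in 14.9% and 0 of 4. The median signal of the 26 peaks was 299 with a core and 74.8 without, and of all promoter peaks 145 and 75.2. The peaks without a core are still optimal peaks, and the absence of these letters near the summit says only that they were not in the window.

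Several peaks held more than 1 core. There were 22 cores in the 13 peaks, sites on both strands counted separately and overlapping sites included, and 19 of the 22 were centred within 50 bp of the summit. ima-2 had 4, npp-9 had 3, and npp-3, ran-1, npp-8 and npp-22 had 2 each. In 6 of 26 peaks (23.1%) there were 2 or more, against 6.16% of all promoter peaks. At npp-3 the cores lay 35 bp to the upstream side and 27 bp to the gene side of the summit, and at ran-1 they lay on opposite strands, 21 bp to the upstream side and 33 bp to the gene side. The cores of npp-19 and npp-10 were the farthest from their summits, at 78 and 82 bp. The sequence TTTGAA or TTCGAA, the type of site bound by LIN-54 in the DREAM complex, was within 100 bp of the summit in 23 of the 26 peaks (88.5%). It was in 60.9% of all promoter peaks and in 56.2% of the upstream windows of all genes. Peaks without it were those of ima-1, npp-7 and ran-5.

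**Figure D4:**
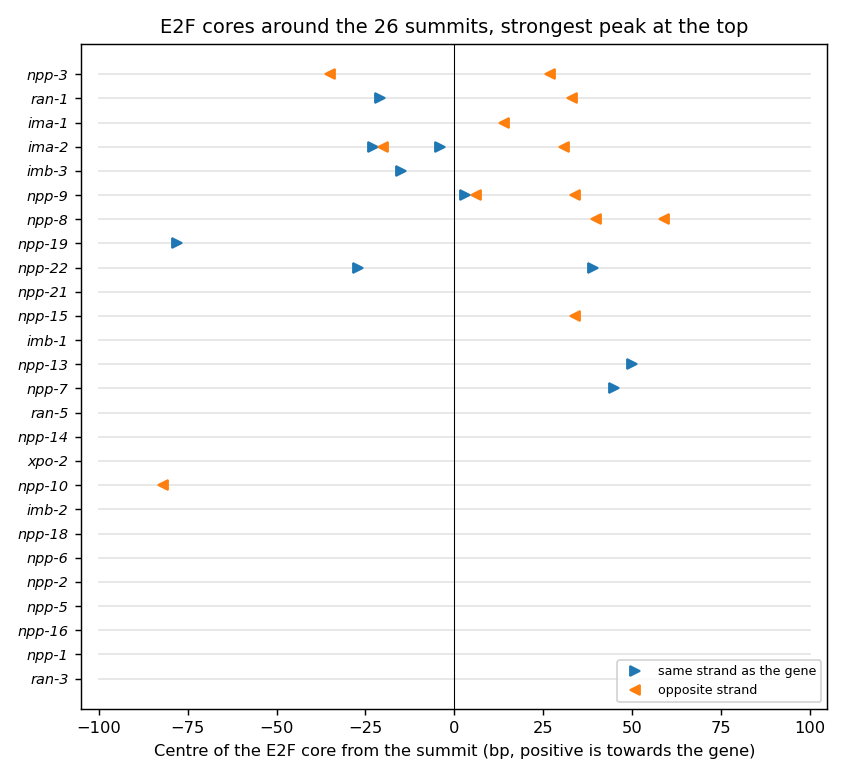
Positions of E2F cores within 100 bp of the summit of each of the 26 promoter peaks (x axis, distance of the centre of the core in bp, positive towards the gene), with the strongest peak at the top; arrowheads give the strand relative to the gene. The 9 peaks at the top each have 1 to 4 cores, and 19 of the 22 cores lie within 50 bp of the summit.

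How far the libraries differed was examined peak by peak. Over the 26 peaks, Spearman's rho between the replicates reached 0.943, and Pearson's r on the log2 scale 0.889, against 0.80 and 0.859 over the 2170 genes whose promoter peak had a region in both replicates. These are correlations across genes within a pair of libraries whose lists share 1 further input file, and genes are not independent replicates. The 26 peaks were also chosen on the signal of both replicates. Replicate 1 was higher at 17 of the peaks and replicate 2 at 9, with a median ratio of replicate 1 to replicate 2 of 1.14, against 1.19 over all genes with a promoter peak. At 23 of the 26 peaks neither replicate exceeded the other by 2 times or more. At the remaining 3, replicate 1 had the higher value, namely npp-5 at 9.15 times, npp-18 at 2.18 times and npp-19 at 2.00 times. The lowest ratio was 0.567, at npp-10. A total of 23 of the 26 peaks were among the 2802 strongest nuclear regions of each replicate, and the exceptions were npp-5, npp-16 and ran-3. By this rule 8.46% of all genes had a promoter peak.

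**Figure D5:**
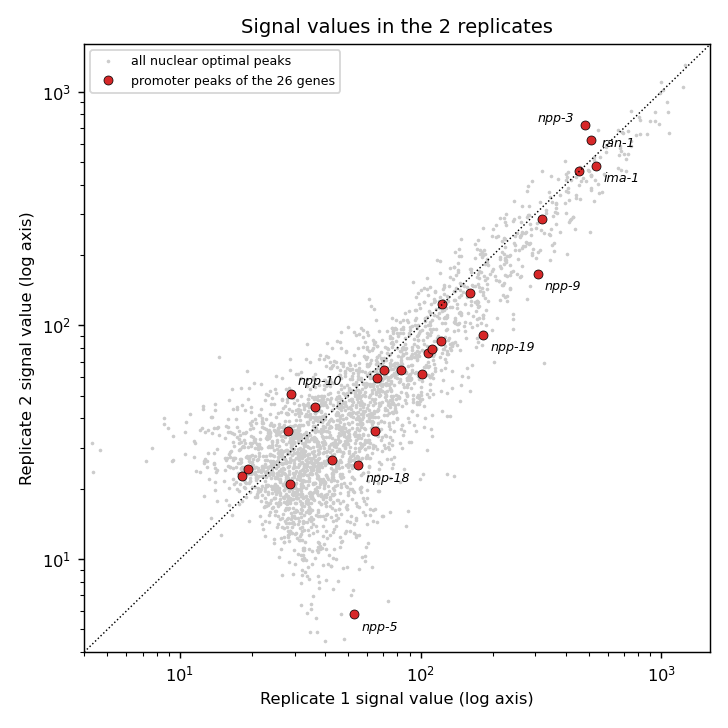
Deposited signal values of replicate 1 (x axis) against replicate 2 (y axis), both on log axes, for all nuclear optimal peaks with a region in both (grey) and for the promoter peaks of the 26 genes (red), with the line of equal values dotted. Among the red points, the highest values in both are those of npp-3, ran-1, ima-1 and ima-2, and npp-5 lies far below it at 53.1 and 5.8.

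Of the 14 genes without a promoter peak, 12 had a weaker region of the list called on both replicates in the window. These had signals from 7.28 to 38.6 with a median of 21.4. ran-4 and npp-20 came closest to the threshold. At ran-4 replicate 1 had 18.7 and replicate 2 had 15.3, and the joint list had 38.6, at rank 2935. At npp-20 the replicates had 20.8 and 19.9, and the joint list 38.5, at rank 2943. The weakest promoter peaks just inside the threshold were those of ran-3 at 43.6 and npp-1 at 49.2. The npp-20 region was the only region of the 12 with an E2F core within 100 bp. Of all promoter regions below the optimal peaks, 9.0% held one. xpo-3 followed at 32.8 with 20.9 and 9.62 in the replicates, then npp-4 (26.6), npp-27 (25), npp-25 (22.3), ran-2 (20.4), npp-24 (17), npp-11 (15.7), ima-3 (13.0) and xpo-1 (12.2). npp-23 was unlike these. Replicate 2 had a region from 8869799 to 8869873 on chromosome IV with a value of 63.7 and rank 716, 160 bp upstream of a start. Replicate 1 had at most 16 in the window and the list called on both replicates had 7.28, in regions that did not overlap that of replicate 2. npp-12 had no region of the joint list in the window and 7.91 in replicate 2, and npp-26 had no region in any of the lists.

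For 3 of these genes an optimal peak lay within 1000 bp. At xpo-1 it was 805 bp upstream (V, 7804138 to 7804346), with 110 in replicate 1, 123 in replicate 2 and 236 together, and it was the promoter peak of uvs-1. At npp-12 it was 653 bp upstream (I, 6446567 to 6446726), with 75.5, 70.9 and 150, at the promoter of T23H2.3. At ran-4 it was 961 bp downstream of the start, past the end of the gene, with 46.6 in replicate 1, 5.82 in replicate 2 and 54.8 together, at tmem-208. With a window of 1000 bp these 3 made the count 29 of 40, against 13.8% of all genes.

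The 40 genes lie on all chromosomes but X. Promoter peaks were present at 9 of 13 genes on chromosome I, 7 of 8 on II, 6 of 8 on III, 2 of 3 on V and 2 of 8 on IV. The shares over all genes of these chromosomes were 18.3% on I, 12% on II, 18.7% on III, 6.61% on V and 11.9% on IV, and 1.17% on X, where none of the 40 genes lies. The genes on chromosome IV with a peak were npp-1 and npp-8, and those without included ima-3, xpo-3 and npp-20.

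Other genes of the nuclear envelope, of RNA export and of the SUMO pathway had promoter peaks at 12 of 21, against 10.9% of all genes, in a list that was also drawn up with earlier results known. Of the nuclear envelope and related genes, the emerin gene emr-1 (85.3), lem-2 (116), the nuclease gene lem-3 (118), baf-1 (73.5), the SUN gene sun-1 (90.2), the KASH gene zyg-12 (96.3) and nemp-1 (147) had a peak. The lamin gene lmn-1, unc-84, cnep-1, lpin-1 and mel-28, which encodes the ELYS protein that seeds pore assembly on chromatin, had none. Of mRNA export, aly-2 (668), aly-3 (41.9), the helicase gene hel-1 (268) and nxt-1 (62.2) had a peak, and nxf-1, nxf-2 and aly-1 had none. The SUMO gene smo-1 had a peak of 655 with its summit 474 bp upstream, and the SUMO protease gene ulp-1 had none. Only aly-2 and smo-1 of the 12 exceeded the peak of imb-3 (612). The peaks of zyg-12, nemp-1 and aly-2 were shared with try-1, magu-1 and rpb-12. The start of try-1 was nearer to the summit than that of zyg-12 (41 against 332 bp). Outside the naming rule, rae-1 (npp-17), an mRNA export factor of the pore, had no promoter peak. C35A5.8, which RefSeq names xpo-7, had a weak peak of 50.8 shared with hda-11.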

How the data were processed

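Peak lists of EFL-1 ChIP-seq in 2 biological replicates were used. The authors deposited the signal value of each region in column 7, from lists on build ce11 made, per the file texts deposited with the samples, from the alignments of each replicate or of both together and 1 further input common to all, which those texts do not describe. A control experiment is named in the labels and was not analysed here. For the peak caller, the scale and the IDR threshold (irreproducible discovery rate), nothing was given in the sources used here. The optimal list was derived from the lists of each replicate and of both, per the same texts. Depth is unknown, and that number of replicates limits the precision. Each list held 30000 regions and the optimal list 2825, of which 23 mitochondrial peaks were left out. Python 3.11.15 was used with pandas 2.3.3. Summits were set against 29314 start sites of protein-coding transcripts in the WBcel235 annotation, the same assembly as ce11; the FASTA of that assembly gave the sequences. A replicate's value is its strongest region overlapping the peak by at least 1 bp. At genes without a promoter peak it is the strongest region of each list in the window, and these regions need not overlap. Where a gene had several peaks, the strongest was used. The gene set, the roles and the further list were chosen with earlier results of these data known, and the rule for naming genes took every gene of the set, with or without a peak, and the genes that share its peaks. No set test was made. The assignment of peaks to start sites was tested on simulated peaks, and the motif search on planted motifs. The other functions were not tested in this way. Alternatives covered the window, assignment, list strength, replicates, overlap rules and motif forms; ce10 lists were not used.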

Additional observations from a re-analysis of the deposited data

How the results depend on the processing

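No paired analysis was possible because there is 1 group of samples and no contrast. The count of 26 genes with a promoter peak became 11 within 200 bp of a start, 17 with nearest start sites alone and 17 for the stronger 1401 optimal peaks; it was between 23 and 29 under the other windows and lists tried. With the list of 1 replicate it was 24 to 25, and the genes without a peak were 15 to 16. Without replicate 1 (the list of replicate 2 alone), npp-5 and npp-21 lost their promoter peak and npp-23 gained one. At npp-21 replicate 2 still had a region of 85.4 at rank 493 overlapping the peak, but its summit was not within 500 bp of a start. Without replicate 2, ran-3 and npp-16 lost theirs. The median signal, 153, was 185 within 200 bp and 64.4 to 104 in single replicate lists, whose scale differs: the joint signal of the 26 peaks was close to the sum of the replicate values (median ratio 0.998). The median replicate ratio, 1.14, became 1.12 with 50% reciprocal overlap (21 pairs) and 1.12 with summits within 100 bp (25 pairs), and the median summit position, 232 bp upstream, was -239 to -209 bp in single replicates. Peaks with an E2F core numbered 10 within 50 bp, 15 within 200 bp, 19 when a single T before the inner 5 bases sufficed, and 13 to 14 in single replicates. The peak set restricted to the strongest of both replicates and the addition of rae-1 and C35A5.8 (27 genes) were chosen after seeing the data. Depth is unknown, so its limit cannot be stated.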

Other observations

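The printed sequences of npp-3, imb-2 and npp-15 share a longer stretch, TTCGNTGCGAGACCC, found by aligning these 3 windows after the likeness had been seen. The stretch is shown in capitals with its flanks, each written 5′ to 3′ on the strand named, to place it beside the summit.
npp-3 (chrII:11874874-11874912, plus strand): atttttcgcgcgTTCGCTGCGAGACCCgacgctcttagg
imb-2 (chrII:14365278-14365316, minus strand): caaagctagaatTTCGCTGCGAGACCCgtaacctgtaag
npp-15 (chrIII:7928902-7928940, minus strand): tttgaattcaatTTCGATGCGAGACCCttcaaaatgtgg
Its centre lay 15 bp from the summit at npp-3, 13 bp at imb-2 and at the summit itself at npp-15. Searched on both strands within 100 bp of the summit, it was in 3 of the 26 peaks, which are the 3 it was read from, and in 17 of 1803 promoter peaks (0.943%) and 24 of 2802 nuclear optimal peaks (0.857%). It was in 8 of 7909 promoter regions below the optimal peaks (0.101%) and in 12 of 19973 windows upstream of gene starts (0.0601%). npp-3 and npp-15 also hold an E2F core, and imb-2 does not. The signals of these peaks were 1205, 185 and 75.5. What the stretch binds was not tested.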
